A study of Mus musculus with 8 samples.

Results

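The 10 genes described here encode the master regulator of the antioxidant response, its classical targets, the enzymes that make and use glutathione, and the inducible metallothioneins. They are Nfe2l2, Slc7a11, Gclc, Gclm, Gpx4, Txnrd1, Hmox1, Nqo1, Mt1 and Mt2. They were taken by gene symbol from a table of 26824 mouse genes. Their transcripts were measured by RNA sequencing of whole retina in 3 libraries labelled WT (WT 1 to WT 3) and 5 libraries labelled Kv8.2 KO (KO 2 to KO 6). Kv8.2 is the product of Kcnv2, a silent potassium channel subunit of photoreceptors. All mice were 1 month old and untreated, and each library holds the 2 retinas of 1 mouse. The strain, the sex and the way the knockout was made are not given in the sources used here. The comparison asks whether retinas labelled as lacking Kv8.2 differ in the transcripts of these defence genes.

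Nfe2l2 encodes NRF2, a transcription factor that KEAP1 normally holds in the cytoplasm and sends for degradation. Oxidants and electrophiles modify KEAP1, NRF2 then enters the nucleus, pairs with a small MAF protein and binds antioxidant response elements near its targets. The targets supply glutathione, the main soluble thiol of the cell, as well as thioredoxin reductase, heme oxygenase and quinone reductase. Metallothioneins are small cysteine-rich proteins that bind zinc and copper, and the factor MTF1 induces them through metal response elements. In the retina, photoreceptors consume much oxygen and carry membranes rich in oxidisable lipids, while Muller glia hold much of the glutathione.

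Some libraries stood apart before any of these genes was considered. Depth was 17759146 to 25188870 counts per library. Mitochondrial transcripts took 7.09% to 7.92% of the counts in WT, 6.52% in KO 2 and 5.23% in KO 3, but 3.03% to 3.7% in KO 4, KO 5 and KO 6. KO 3 also carried transcripts of lens. All 14 lens markers were in the table, and their summed level was 40200 CPM (counts for each 1e+06 of a library) in KO 3, 19.9 to 1110 CPM in WT and 2.32 to 182 CPM in the other libraries labelled KO. In KO 3 no lens marker was at 0, whereas Cryaa, Cryba2, Lim2 or Birc7 was at 0 in 1 or more of WT 3, KO 4, KO 5 and KO 6. Rod markers marked all libraries as retina, with 33700 to 50100 CPM over 5 genes. Kcnv2 itself was present in every library (532 ± 16.4 CPM in WT and 450 ± 77.8 CPM in KO, mean and SD of 3 and 5 libraries). It was highest in KO 2, at 585 CPM against 519 to 551 CPM in WT and 398 to 447 CPM in KO 3 to KO 6. The deleted part of the gene is not given, so this level does not check the labels. The submitters left 2 KO samples out of their own test without naming them. All 8 libraries were therefore fitted together, and the fits of KO 4 to KO 6 against WT and of KO 2 and KO 3 against WT stand beside that result. These 2 subsets follow library properties, were chosen after seeing the data and are not groups of the study.

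The sequences just upstream of the genes were searched for the core letters of the elements through which NRF2 and MTF1 are known to act. RefSeq (GRCm38.p6) had a promoter for 8 of the 10 genes, and 250 bases upstream of the start were searched on both strands; Hmox1 and Gclc were not analysed here. The antioxidant response element core was searched as TGACNNNGC and the metal response element cores as TGCACNC and TGCGCNC. A further motif, the core of the C/EBP-ATF response element bound by ATF4 (TGATGNAA), was added after the Slc7a11 sequence had been read. Matches of one motif that overlap another were kept. The promoters of 4 genes are shown, for the pair of metallothioneins and for Gclm and Slc7a11, which were above WT in KO 2 and KO 3 and below it in KO 4 to KO 6.
Gclm: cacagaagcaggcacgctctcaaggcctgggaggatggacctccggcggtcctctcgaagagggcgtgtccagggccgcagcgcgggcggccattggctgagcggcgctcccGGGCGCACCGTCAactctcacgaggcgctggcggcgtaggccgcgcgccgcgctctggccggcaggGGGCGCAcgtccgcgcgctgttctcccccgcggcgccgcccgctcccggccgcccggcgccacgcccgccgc
Slc7a11: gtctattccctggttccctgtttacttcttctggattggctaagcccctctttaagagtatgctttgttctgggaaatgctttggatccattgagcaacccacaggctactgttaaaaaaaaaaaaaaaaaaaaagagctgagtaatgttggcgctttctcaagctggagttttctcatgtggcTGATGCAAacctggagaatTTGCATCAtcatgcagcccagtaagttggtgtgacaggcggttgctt
Mt1: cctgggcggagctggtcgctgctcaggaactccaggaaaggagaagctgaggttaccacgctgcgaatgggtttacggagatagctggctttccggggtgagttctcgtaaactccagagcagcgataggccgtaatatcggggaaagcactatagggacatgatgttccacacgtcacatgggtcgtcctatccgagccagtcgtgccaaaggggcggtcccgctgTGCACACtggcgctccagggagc
Mt2: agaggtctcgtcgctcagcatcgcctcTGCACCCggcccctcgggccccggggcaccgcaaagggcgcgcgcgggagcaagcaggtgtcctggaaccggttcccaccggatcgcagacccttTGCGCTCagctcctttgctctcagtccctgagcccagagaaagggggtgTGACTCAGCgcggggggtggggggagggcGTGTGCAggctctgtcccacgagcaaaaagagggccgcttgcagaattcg
Capitals mark the motif matches, and each sequence reads 5′ to 3′ toward the start of the gene.

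The Gclm sequence (chr3:122245307-122245556, plus strand) held 1 antioxidant response element core that overlapped 1 of 2 metal response element cores. The Slc7a11 sequence (chr3:50443614-50443863, minus strand) held neither of these but 2 C/EBP-ATF cores, one on each strand. The Mt1 sequence (chr8:94178839-94179088, plus strand) held 1 metal response element core. The Mt2 sequence (chr8:94172368-94172617, plus strand) held 3 metal response element cores and 1 antioxidant response element core. Of the others, Nfe2l2 held 1 antioxidant response element core, Txnrd1 held 1 in 1 of its 3 promoters, and the sequences of Nqo1 and Gpx4 held no match. Among 32851 mouse promoters of the same length, 10.2% held the antioxidant core, 21.4% a metal response core, 1.26% at least 3 metal response cores and 3.5% the C/EBP-ATF core. A match is a string of letters and not a measured binding site.

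None of the 10 genes passed the test between the libraries labelled KO and WT in the fit of all 8 libraries. All 10 passed the filter on low counts. With edgeR's quasi-likelihood test and Benjamini-Hochberg adjustment over 20167 tested genes, 0 of the 10 were called at an adjusted p below 0.05, 0 had an unadjusted p below 0.05, and the adjusted p ran from 0.186 for Mt2 to 0.978 for Slc7a11. Of all tested genes 7.58% were called, 4.74% higher and 2.84% lower, and with scaling by library size alone the balance turned to 2.81% higher and 3.9% lower. DESeq2 also called 0 of the 10 (15.5% of all genes), with Mt2 alone under an unadjusted p of 0.05, whereas limma voom with library quality weights called 3 (Gclm, Slc7a11 and Txnrd1) and 40.9% of all genes. The fold change was positive for Hmox1, Txnrd1 and Gclc and negative for the other 7, with a median log2 fold change of -0.12 (KO minus WT), against 0.00 over all tested genes. This lower median was not present with an offset for GC content, where 5 of the 10 were higher and 5 lower with a median of 0.02 (0.02 over all genes), and it ran from -0.20 without KO 3 to -0.04 without KO 6 when 1 library was left out. In each of the 10 genes at least 1 library labelled KO lay within the WT range or the KO libraries lay on both sides of it, so the groups overlapped. Every KO library lay on 1 side of every WT library in 20.9% of all tested genes (10.8% higher, 10.1% lower). P-values measure the spread between these libraries, and in RNA of whole retina fewer cells of a type and less RNA per cell cannot be told apart.

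**Figure D1:**
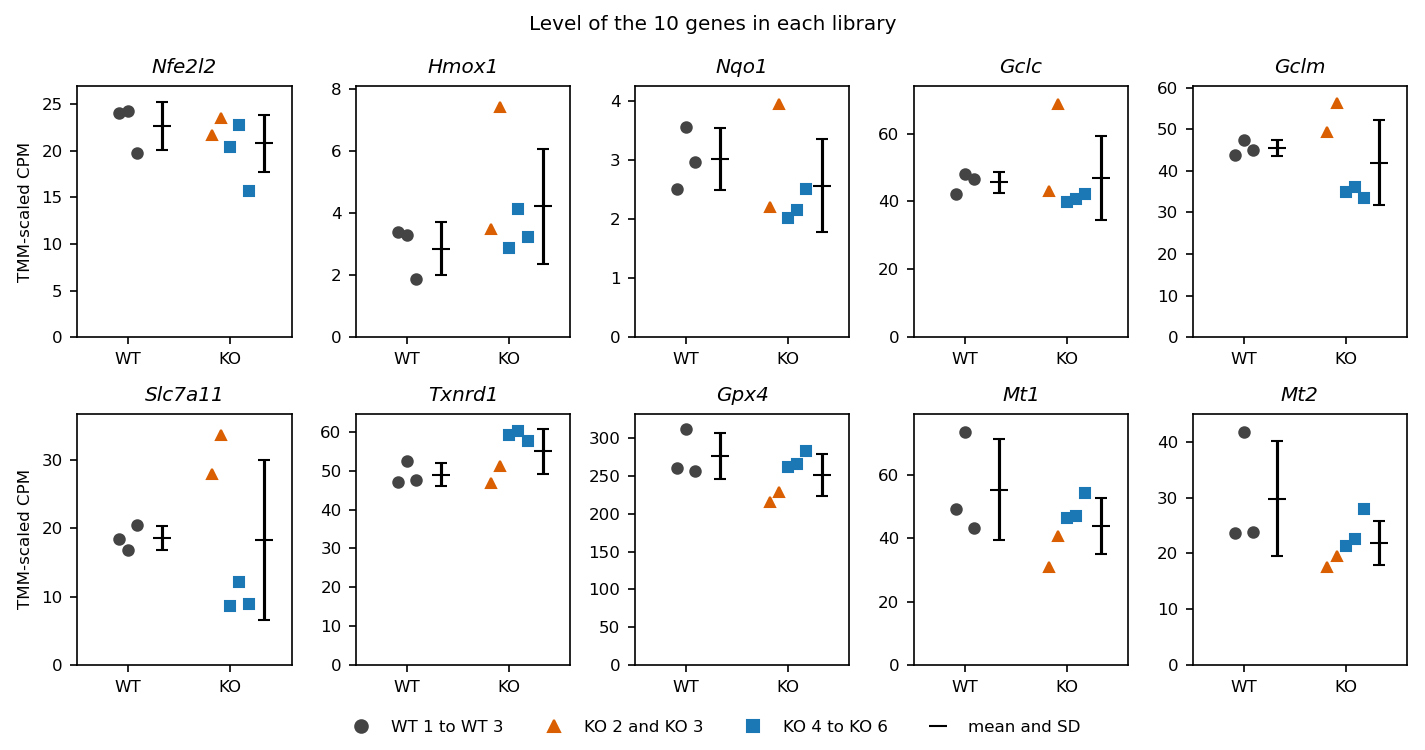
TMM-scaled CPM (linear axis from 0) of the 10 genes in each library; circles are WT 1 to WT 3, triangles KO 2 and KO 3, squares KO 4 to KO 6, and the bars give the mean and SD of each labelled group. The groups overlap in all 10 panels; Slc7a11 and Gclm are above WT in KO 2 and KO 3 and below WT in KO 4, KO 5 and KO 6.

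The genes differed widely in abundance in WT retina. Levels were compared between genes as CPM per kilobase of the principal transcript. Gpx4 stood highest at 289 ± 31.9 CPM per kilobase (SD, n = 3), followed by Mt1 at 101 ± 29.1 and Mt2 at 58.3 ± 20.2, whose WT ranges overlapped. Txnrd1 (13.9 ± 0.834 CPM per kilobase) and Gclc (13.3 ± 0.915) came next and overlapped each other. Nfe2l2 (9.15 ± 1.04 CPM per kilobase) and Gclm (8.12 ± 0.34) formed a lower pair that also overlapped. The lowest were Slc7a11 (2.02 ± 0.195 CPM per kilobase), Nqo1 (1.95 ± 0.34) and Hmox1 (1.82 ± 0.546), which overlapped in all WT libraries' ranges. The 2 textbook reporters of NRF2 activity, Nqo1 and Hmox1, were thus measured from few reads, with 41 to 83 counts per library for Nqo1 and 42 to 156 for Hmox1.

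Nfe2l2 (ENSMUSG00000015839, chr2:75675513-75704641, minus strand), the regulator itself, was at 24, 24.2 and 19.7 CPM in WT 1 to WT 3 and at 21.7, 23.5, 20.4, 22.7 and 15.7 CPM in KO 2 to KO 6. Only KO 6 lay below the WT range. Over all libraries its log2 fold change was -0.12 (SE 0.14, 95% interval -0.44 to 0.19, adjusted p = 0.615). It was -0.214 without WT 3, -0.078 without WT 1, -0.062 without WT 2, -0.035 without KO 6 and -0.049 with the GC offset, and was called in none of these fits. NRF2 is regulated mainly through the stability of the protein, which these data do not measure.

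Slc7a11 (ENSMUSG00000027737, chr3:49892526-50443614, minus strand) encodes xCT, the subunit of the cystine-glutamate exchanger that imports the cystine from which glutathione is made. It varied more among the libraries labelled KO than any other of the 10 genes. It stood at 18.5, 16.9 and 20.5 CPM in WT 1 to WT 3, reaching 28 CPM in KO 2 and 33.7 CPM in KO 3, and was down at 8.62, 12.2 and 8.97 CPM in KO 4, KO 5 and KO 6. No library labelled KO fell inside the WT range: KO 2 and KO 3 were above it and KO 4 to KO 6 below it. The coefficient of variation was 64% over the libraries labelled KO and 9.67% over WT. The means were nearly equal, 18.3 ± 11.7 CPM (SD, n = 5) against 18.6 ± 1.8 CPM (SD, n = 3), with a log2 fold change of -0.02 (SE 0.43, 95% interval -0.97 to 0.92, adjusted p = 0.978). The interval is the widest of the 10.

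In the fit of KO 4 to KO 6 against WT, Slc7a11 fell, with a log2 fold change of -0.90 (SE 0.14, adjusted p = 0.000244). In the fit of KO 2 and KO 3 against WT it rose, with a log2 fold change of 0.73 (SE 0.13, adjusted p = 0.0473). Both fits use the same WT libraries, and the difference between them was not tested. The lower level in KO 4 to KO 6 kept its call when any 1 of the 6 libraries was left out (log2 fold change -1.08 to -0.82) and with an offset for GC content (-0.52, adjusted p = 0.0168). The higher level in KO 2 and KO 3 was called with the GC offset (0.83), but the call was lost when WT 1 (0.72, adjusted p = 0.237), WT 2 (0.66, adjusted p = 0.251) or WT 3 (0.80, adjusted p = 0.115) was left out. Without KO 2 (0.85) or KO 3 (0.60) a single KO library remained, its spread was assumed to be that of the WT libraries, and the calls made there do not measure stability. The mitochondrial share was lower in KO 4 to KO 6 than in every other library, and lens markers summed to 547, 1110 and 19.9 CPM in WT 1 to WT 3, 182 CPM in KO 2 and 40200 CPM in KO 3. The part of the mitochondrial share and of the lens transcripts in the Slc7a11 values was not tested.

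Gclc and Gclm encode the catalytic and the modifier subunit of glutamate-cysteine ligase, the rate-limiting enzyme of glutathione synthesis. Gclc (ENSMUSG00000032350, chr9:77754535-77794485, plus strand) was at 42.1, 48.2 and 46.5 CPM in WT 1 to WT 3 and at 43.1, 68.8, 39.8, 40.6 and 42.1 CPM in KO 2 to KO 6. KO 3 alone was high, and the other libraries labelled KO lay within or just below the WT range. Its log2 fold change was 0.04 (SE 0.17, adjusted p = 0.907), and without KO 3 it turned to -0.13 (adjusted p = 0.277). Gclm (ENSMUSG00000028124, chr3:122245557-122270732, plus strand) was at 43.8, 47.5 and 44.9 CPM in WT 1 to WT 3 and at 49.4, 56.3, 34.9, 36 and 33.5 CPM in KO 2 to KO 6. Like Slc7a11, it was above the WT range in KO 2 and KO 3 and below it in the other 3. Its log2 fold change was -0.11 (SE 0.17, adjusted p = 0.714) over all libraries, 0.22 (adjusted p = 0.276) for KO 2 and KO 3 against WT, and -0.37 (adjusted p = 0.000818) for KO 4 to KO 6 against WT. The value over all libraries was -0.231 without KO 3, -0.174 without KO 2, -0.07 without WT 2, -0.06 without KO 5, -0.049 without KO 4 and -0.038 without KO 6, and it turned to 0.093 with the GC offset. The call in KO 4 to KO 6 held when any 1 library was left out but was lost with the GC offset (-0.06, adjusted p = 0.522). Gclm overlaps exons of Gm17494 on the opposite strand (87 to 120 counts per library, against 705 to 1185 for Gclm) and of the pseudogene Gm6061 on the same strand. Its counts are uncertain to that extent, and whether counting used the strand is not given in the sources used here.

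**Figure D2:**
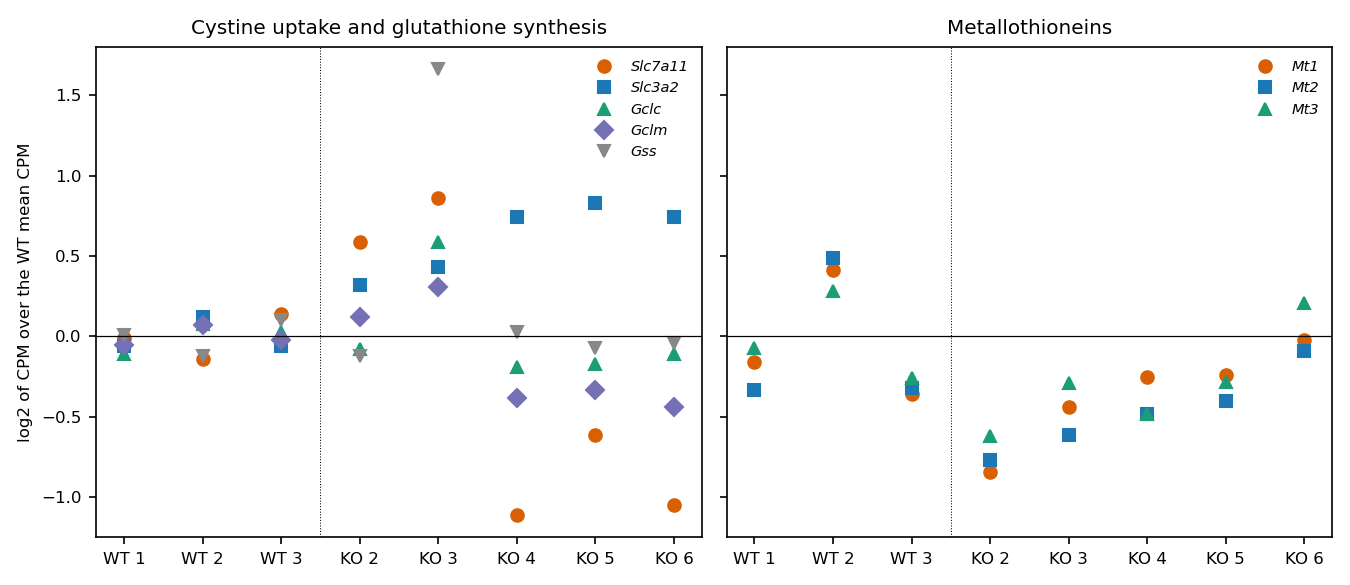
log2 ratio of each library's CPM to the WT mean CPM for genes of cystine uptake and glutathione synthesis (left) and for metallothioneins (right), with 1 symbol per gene and library and a dotted line between WT and KO. Slc7a11 and Gclm are above 0 in KO 2 and KO 3 and below it in KO 4 to KO 6, while Slc3a2 is above 0 in all 5; on the right, WT 2 is the highest library for Mt1, Mt2 and Mt3.

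The partner of xCT passed the test over all 8 libraries. Slc3a2 encodes the heavy chain that carries xCT and several other amino acid transporters to the membrane, and it rose in the libraries labelled KO. It was at 74.6, 84.5 and 74.5 CPM in WT 1 to WT 3 and at 97.5, 105, 130, 138 and 130 CPM in KO 2 to KO 6, with no overlap. The log2 fold change was 0.62 (SE 0.13, adjusted p = 0.0234), with 0.38 (adjusted p = 0.105) for KO 2 and KO 3 against WT and 0.78 (adjusted p = 4.18e-06) for KO 4 to KO 6 against WT, the libraries in which Slc7a11 fell. Gss, the second enzyme of glutathione synthesis, resembled Gclc in that KO 3 alone was high, at 64.3 CPM against 18.6 to 21.7 CPM in the other 7 libraries. KO 3 is the library with lens transcripts, and their part in the Gclc and Gss values was not tested.

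Gpx4 and Txnrd1 encode selenoproteins that spend reducing power on lipid peroxides and on thioredoxin. Gpx4 (ENSMUSG00000075706, chr10:80047166-80056439, plus strand), the glutathione peroxidase that protects membranes from ferroptosis, was at 261, 312 and 257 CPM in WT 1 to WT 3 and at 216, 229, 262, 266 and 283 CPM in KO 2 to KO 6. KO 2 and KO 3 were below the WT range and the other 3 within it. Its log2 fold change was -0.14 (SE 0.12, 95% interval -0.40 to 0.12, adjusted p = 0.477), and it was -0.036 (adjusted p = 0.911) without WT 2 and -0.35 (adjusted p = 0.0592) with the GC offset. Of its 31-base words 38.9% also occur in another gene, with the pseudogene Gpx4-ps2 (39 to 99 counts per library) as the main partner, against 4758 to 6635 counts for Gpx4. How reads were divided between them is not known from these data. Txnrd1 (ENSMUSG00000020250, chr10:82833951-82897712, plus strand), the cytosolic thioredoxin reductase, was at 47.1, 52.4 and 47.6 CPM in WT 1 to WT 3 and at 46.7, 51.2, 59.2, 60.3 and 57.6 CPM in KO 2 to KO 6. KO 4, KO 5 and KO 6 were above every WT library, and KO 2 and KO 3 were not. Over all libraries the log2 fold change was 0.17 (SE 0.10, adjusted p = 0.308), while it was 0.00 (adjusted p = 0.995) for KO 2 and KO 3 against WT, and 0.28 (SE 0.07, adjusted p = 0.00506) for KO 4 to KO 6 against WT. The last call held when any 1 library was left out and with the GC offset (0.24, adjusted p = 0.014).

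Hmox1, inducible heme oxygenase, and Nqo1, a quinone reductase widely used as a readout of NRF2, were low in every library. Hmox1 (ENSMUSG00000005413, chr8:75093621-75100589, plus strand) was at 3.4, 3.29 and 1.87 CPM in WT 1 to WT 3 and at 3.47, 7.42, 2.86, 4.14 and 3.23 CPM in KO 2 to KO 6. KO 3 was the highest library and WT 3 the lowest, and neither group was tight. Its log2 fold change of 0.57 (SE 0.34, 95% interval -0.18 to 1.32, adjusted p = 0.3) was the largest of the 10 in size and fell to 0.28 (adjusted p = 0.464) without KO 3 and to 0.34 (adjusted p = 0.635) without WT 3. Nqo1 (ENSMUSG00000003849, chr8:107388225-107403206, minus strand) was at 2.52, 3.57 and 2.98 CPM in WT 1 to WT 3 and at 2.21, 3.95, 2.02, 2.15 and 2.51 CPM in KO 2 to KO 6. KO 3 was again the highest, and the other 4 libraries labelled KO were below all WT libraries. For Nqo1 the log2 fold change was -0.24 (SE 0.25, adjusted p = 0.578) over all libraries and -0.43 (adjusted p = 0.138) for KO 4 to KO 6 against WT. Leaving out 1 library moved the pooled value to -0.44 (adjusted p = 0.16, without KO 3) or to -0.093 (adjusted p = 0.893, without WT 2). KO 3 with its lens transcripts was thus the highest library for Hmox1, Nqo1, Gclc, Gclm and Slc7a11, and the part of those transcripts was not tested.

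The metallothioneins Mt1 and Mt2 gave the most negative fold changes of the 10 but did not pass the test. Mt1 (ENSMUSG00000031765, chr8:94179082-94180327, plus strand) was at 49.4, 73.5 and 43.2 CPM in WT 1 to WT 3 and at 30.9, 40.8, 46.6, 47 and 54.5 CPM in KO 2 to KO 6. Mt2 (ENSMUSG00000031762, chr8:94172664-94173568, plus strand) was at 23.7, 41.7 and 23.9 CPM in WT 1 to WT 3 and at 17.5, 19.5, 21.4, 22.6 and 27.9 CPM in KO 2 to KO 6. WT 2 was the highest library for both genes and KO 2 the lowest. The log2 fold change was -0.33 (SE 0.20, 95% interval -0.77 to 0.10, adjusted p = 0.298) for Mt1 and -0.45 (SE 0.21, 95% interval -0.91 to 0.00, adjusted p = 0.186) for Mt2. Leaving out WT 2 reduced them to -0.07 (adjusted p = 0.881) and -0.12 (adjusted p = 0.74). With the GC offset they were -0.54 (adjusted p = 0.0812) and -0.61 (adjusted p = 0.0796). The neighbouring genes kept a steady proportion, since the ratio of Mt1 to Mt2 counts was 1.76 to 2.18 over the 8 libraries. Mt3, the brain form of the same cluster, was also highest in WT 2, at 21.5 CPM, and was not called (log2 fold change -0.26, adjusted p = 0.405). Summed lens markers were at 547, 1110 and 19.9 CPM in WT 1 to WT 3 and at 40200 CPM in KO 3, where both genes were below every WT library. The part of lens transcripts in the metallothionein values was not tested. An antisense gene, Gm45774, overlaps Mt2 and had 6 to 17 counts per library against 403 to 887 for Mt2.

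**Figure D3:**
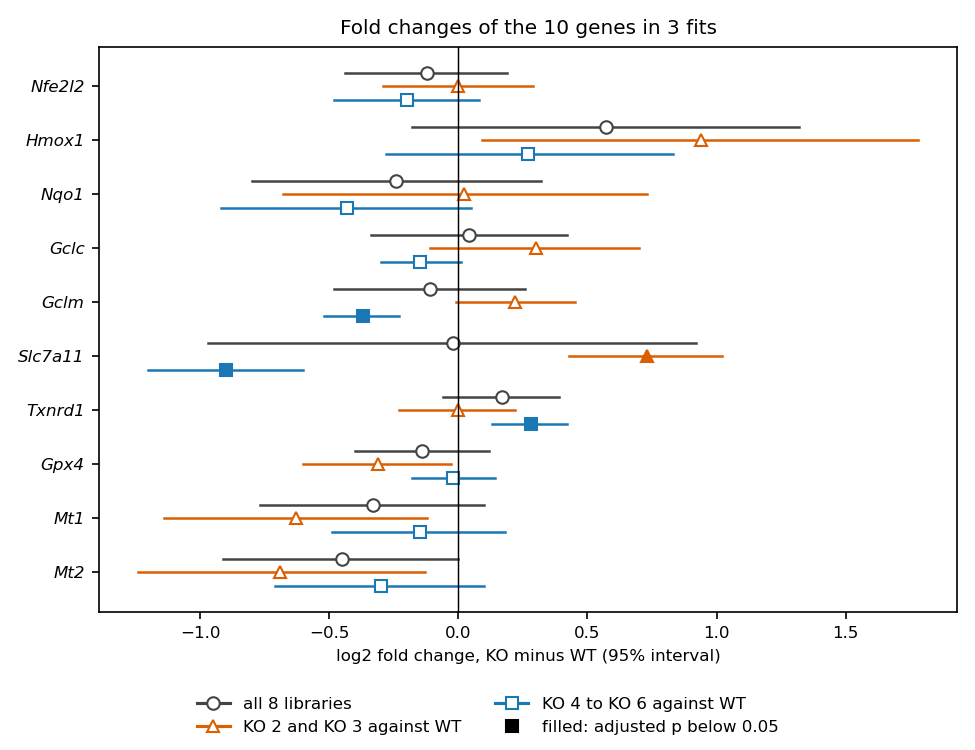
log2 fold change (KO minus WT) with its 95% interval for each of the 10 genes in 3 edgeR fits, of all 8 libraries (circles), of KO 2 and KO 3 against WT (triangles) and of KO 4 to KO 6 against WT (squares); filled symbols have an adjusted p below 0.05. No circle is filled, Slc7a11 has filled symbols on both sides of 0, and Gclm and Txnrd1 have a filled square each.

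In the subset fits the 10 genes are best read against all others. For KO 4 to KO 6 against WT, 3 of the 10 were called, Txnrd1 higher and Gclm and Slc7a11 lower, where 42.8% of 19678 tested genes were called (22.3% higher, 20.5% lower). With the GC offset the count was 5 (Txnrd1 higher, and Slc7a11, Gpx4, Mt1 and Mt2 lower), where 31.9% of genes were called. For KO 2 and KO 3 against WT, Slc7a11 alone was called, where 0.891% of 20201 genes were called (0.624% higher, 0.267% lower), and Hmox1, Gpx4, Mt1 and Mt2 had an unadjusted p below 0.05 without passing the adjustment. In that fit 2 further calls came from 1 KO library against WT, whose spread was assumed to be that of the WT libraries, so that they describe KO 3 and KO 2 and not the label: without KO 2, Gclc was called higher (0.59, adjusted p = 0.0144, with 2.96% of all genes called), and without KO 3, Mt1 was called lower (-0.83, adjusted p = 0.0496, with 16.8% of all genes called). For KO 4 to KO 6 against WT, leaving out WT 1 added Gclc to the calls (-0.22, adjusted p = 0.045), where 36% of all genes were called.

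The wider pathways were read from 9 lists of 111 genes, which include the 10. Of these, 110 rows were tested; Mt4 and Mgst2 were not analysed here, and Nnt had 2 identifiers that share their sequence. Of the 110, 12 were called, 7 higher and 5 lower (10.9%, against 7.58% of all tested genes), with a median log2 fold change of 0.00 (0.00 over all tested genes). The balance was the other way for KO 4 to KO 6 against WT, with 24 higher and 29 lower (median -0.05), where 42.8% of all genes were called. For KO 2 and KO 3 against WT, 3 were higher and 0 lower (median 0.06), where 0.891% of all genes were called (0.624% higher, 0.267% lower). None of the 12 is one of the 10 genes. In all 12 the libraries labelled KO did not overlap WT, as in 20.9% of all tested genes (10.8% higher, 10.1% lower). The 12 were picked by a test on the same libraries, so this adds no support to the calls. All 12 calls were lost when any WT library was left out. Leaving out KO 4 or KO 5 left 2 (Tkt and Trf), and leaving out KO 6 left 3 (with Slc3a2). All 12 kept their direction in every fit run, which was nearly fixed in advance because their groups did not overlap. For KO 2 and KO 3 against WT, Tkt and Trf were called, but neither was when WT 1, WT 2 or WT 3 was left out of that fit, and Tkt was not with the GC offset.

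The NRF2 switch was the list with 2 calls higher and 0 lower of 10 genes, with a median log2 fold change of 0.33. Keap1, the inhibitor of NRF2, was at 49.2 to 54.2 CPM in WT and 55.8 to 69.8 CPM in the libraries labelled KO (log2 fold change 0.34, SE 0.09, adjusted p = 0.0449). Mafk, a small MAF partner of NRF2 and of its rival BACH1, was at 6.09 to 7.24 CPM in WT and 8.94 to 10.6 CPM in the libraries labelled KO (0.52, SE 0.13, adjusted p = 0.0391). Nfe2l2 itself did not pass the test, as above. The related Nfe2l1 (0.35, adjusted p = 0.08) and the KEAP1-binding autophagy receptor Sqstm1 (0.32, adjusted p = 0.0833) were above WT in every library labelled KO without passing the test, and Bach1 had a log2 fold change of -0.07 (adjusted p = 0.738). With the GC offset neither Keap1 (0.15, adjusted p = 0.314) nor Mafk (0.36, adjusted p = 0.155) was called.

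In glutathione synthesis and recycling, 2 genes rose and 1 fell of 11, with a median log2 fold change of 0.22. For KO 4 to KO 6 against WT the median was -0.02, with 4 higher and 3 lower, where 42.8% of all genes were called (22.3% higher, 20.5% lower). Beside Slc3a2, Oplah, the oxoprolinase that returns glutamate from the glutathione cycle, rose from 22 ± 0.238 CPM (SD, n = 3) to 35.5 ± 7.09 CPM (SD, n = 5) with a log2 fold change of 0.69 (SE 0.16, adjusted p = 0.033). Chac2, which degrades glutathione, fell from 11.9 ± 1.95 to 7.53 ± 0.975 CPM, with a log2 fold change of -0.66 (SE 0.15, adjusted p = 0.0329), but was not called with the GC offset (-0.39, adjusted p = 0.0985). Its inducible relative Chac1 was not called (0.47, adjusted p = 0.288). None of the 19 tested glutathione peroxidases and transferases was called over all 8 libraries (median -0.12) or for KO 2 and KO 3 against WT (median 0.05). For KO 4 to KO 6 against WT, 1 was called higher and 7 lower (median -0.07), where 42.8% of all genes were called. Among the 19, Gpx3, the secreted peroxidase, was at 104 to 129 CPM in WT and at 87.9, 85.6, 32.7, 56.2 and 14.8 CPM in KO 2 to KO 6. The log2 fold change of Gpx3 was -1.05 (SE 0.44, adjusted p = 0.152) over all libraries and -1.73 (adjusted p = 0.000736) for KO 4 to KO 6 against WT. Gsto1 was at 149 CPM in WT 1 and at 9.25 to 29.8 CPM in all other libraries, with 23.5 and 29.8 CPM in WT 2 and WT 3 and 9.46, 9.25 and 9.93 CPM in KO 4 to KO 6. Its log2 fold change was -2.06 (adjusted p = 0.0582) over all libraries and -2.80 (adjusted p = 0.00166) for KO 4 to KO 6 against WT. Without WT 1 these were -0.73 (adjusted p = 0.386) and -1.48 (adjusted p = 1.92e-05). Gpx3 and Gsto1 were chosen after their values were seen.

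In the thioredoxin and peroxiredoxin list 1 of 19 genes rose and 1 fell (median -0.02). Sesn2, a stress-inducible sestrin, rose from 15.3 ± 1.08 CPM (SD, n = 3) to 23.8 ± 4.7 CPM (SD, n = 5), with a log2 fold change of 0.64 (SE 0.17, adjusted p = 0.0458), and was not called with the GC offset (0.42, adjusted p = 0.0711). Glrx, the cytosolic glutaredoxin, fell from 10.1 ± 0.0859 to 7.11 ± 0.799 CPM (-0.51, SE 0.13, adjusted p = 0.0448), and was not called with it either (-0.42, adjusted p = 0.0621). The NRF2 target Srxn1, which reactivates peroxiredoxins, had a log2 fold change of 0.00 (adjusted p = 0.994). None of the 5 superoxide dismutase and catalase genes was called (median 0.00).

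In the list of heme, iron and quinone handling 1 gene rose and 1 fell of 15 (median 0.00). Trf, transferrin, the iron carrier of plasma and retina, had the largest fold change of the 12: it was at 55, 47.1 and 47.7 CPM in WT 1 to WT 3 and at 104, 78.9, 140, 167 and 192 CPM in KO 2 to KO 6, a log2 fold change of 1.45 (SE 0.26, adjusted p = 0.014). It was called in both subset fits, at 0.87 (adjusted p = 0.0275) for KO 2 and KO 3 and 1.75 (adjusted p = 3.1e-07) for KO 4 to KO 6. Of its 31-base words 63.8% are shared with the overlapping gene model Gm20425, so counts may be split between them. Nqo2, a relative of Nqo1 that uses another cofactor, fell from 19.2 ± 1.14 CPM (SD, n = 3) to 14.4 ± 1.04 CPM (SD, n = 5), with a log2 fold change of -0.42 (SE 0.11, adjusted p = 0.0431), but was not called with the GC offset (-0.21, adjusted p = 0.194). The ferritin heavy chain Fth1 had a log2 fold change of 0.00 (adjusted p = 0.984).

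Of the 9 rows for NADPH supply, which recharges both the glutathione and the thioredoxin system, 1 was called (median 0.35). Tkt, the transketolase of the pentose phosphate pathway, rose from 142 ± 5.7 CPM (SD, n = 3) to 203 ± 14.7 CPM (SD, n = 5), with a log2 fold change of 0.51 (SE 0.09, adjusted p = 0.0156), and was called in both subset fits. Its pathway neighbours G6pdx (0.49, adjusted p = 0.0649), Taldo1 (0.45, adjusted p = 0.057) and Pgd (0.35, adjusted p = 0.0889) had values above 0 that did not pass the test. None of 10 tested metallothionein and zinc genes was called (median -0.22), with Mtf1 at 0.05 (adjusted p = 0.821). In selenoprotein synthesis, 2 of 12 genes fell (median -0.18): Selenof (-0.49, SE 0.12, adjusted p = 0.0412, and -0.35, adjusted p = 0.0567, with the GC offset), a selenoprotein of the endoplasmic reticulum, and Pstk (-0.42, SE 0.11, adjusted p = 0.047), the kinase that prepares the transfer RNA for selenocysteine. Keap1, Mafk, Oplah, Nqo2 and Pstk overlap exons of genes on the opposite strand, and without a stated strand setting their counts are uncertain.

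**Figure D4:**
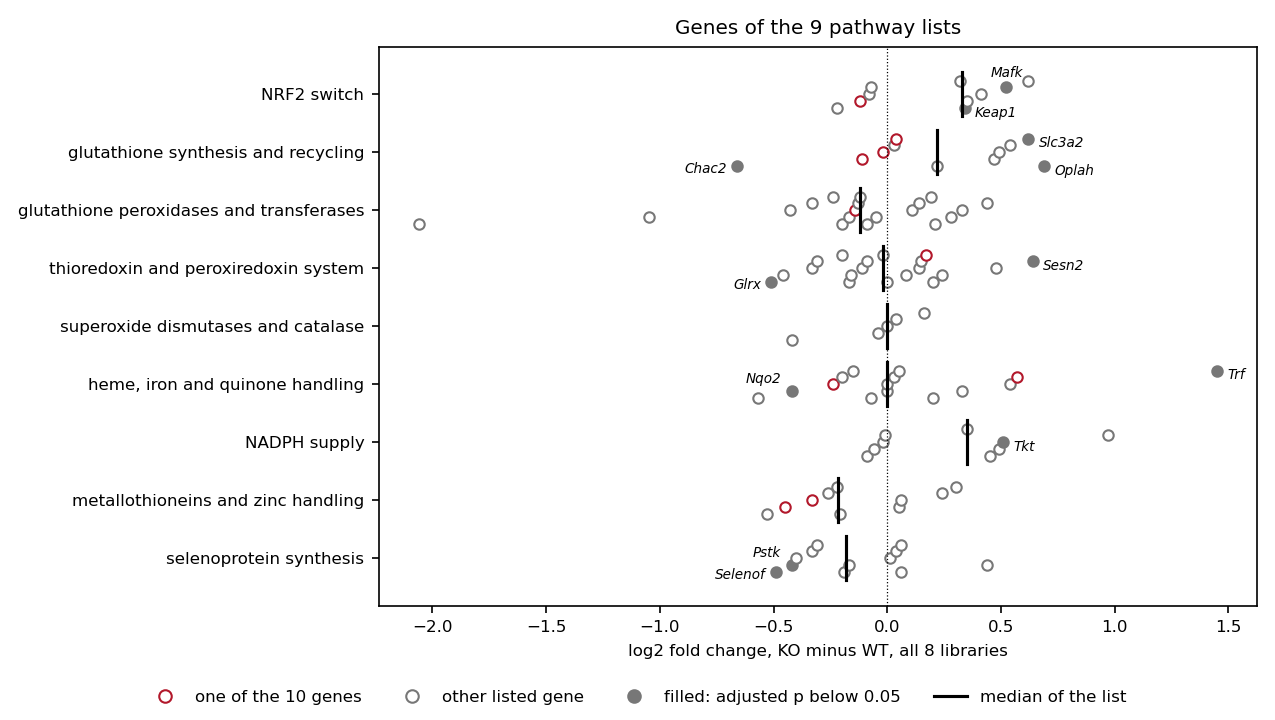
log2 fold change (KO minus WT, all 8 libraries) of every tested gene of the 9 lists, with 1 circle per gene, red for the 10 genes and grey for the others, and a bar at each list's median. Filled circles, 7 to the right of 0 and 5 to the left, have an adjusted p below 0.05; none of them is red.

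Some markers of glial, immune and vascular cells were called as well, and some of the listed genes are expressed in these cells. Summed astrocyte markers (4 of 4 in the table, 1 called higher, Gfap, none at 0) were at 38.3 to 40.3 CPM in WT and 65.6 to 110 CPM in the libraries labelled KO. Gfap carried most of this difference, at 19.1 to 20.7 CPM in WT and 47.4 to 78.3 CPM in the libraries labelled KO. Aldh1l1 (log2 fold change 0.78, adjusted p = 0.0707), Pax2 (0.36, adjusted p = 0.63) and S100b (-0.14, adjusted p = 0.576) were not called. Microglia markers (6 of 6, 2 called higher, none at 0) went from 22.9 to 25.8 CPM in WT to 28.6 to 40.8 CPM, and endothelial and pericyte markers (7 of 7, 2 called higher, none at 0) from 221 to 237 CPM to 306 to 383 CPM. Muller glia markers (7 of 7, 3 called higher, none at 0) were at 3140 to 3340 CPM in WT and 3280 to 4800 CPM in the libraries labelled KO, so that these sums overlapped. Cone markers (5 of 5, 2 called lower, none at 0) were at 780 to 984 CPM in WT and 518 to 692 CPM. The part of these cells in the changes of Trf, Slc3a2, Oplah, Tkt and the other called genes was not tested. Over 18028 genes the log2 fold change of a gene was correlated with the GC content of its transcript (Spearman rho 0.459, a correlation across genes, which are not independent replicates), and with an offset for GC content 5 of the 12 listed genes were still called (Slc3a2, Tkt, Oplah, Trf and Pstk).

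Mt2, the one of the 10 with the smallest p, was taken to look for genes with a like pattern over the 8 libraries. Among 12812 candidates the closest by root mean square difference of centred log2 CPM were Trim17 (0.121), Cck (0.152) and the gene ENSMUSG00000135654 (0.154). Trim17, a ubiquitin ligase, was at 18, 27.7 and 20.4 CPM in WT 1 to WT 3 and at 15 to 20.3 CPM in the libraries labelled KO. As with Mt2, WT 2 was the highest library for all 3, and none of them was called (adjusted p = 0.143, 0.42 and 0.11).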

How the data were processed

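Total RNA of mouse retina was sequenced, per the labels' protocols. The authors deposited a table of estimated counts per gene, which are whole numbers in the file. Trim Galore, Salmon 1.10.2, DESeq2 and the build GRCm38 are named in the submitters' processing notes, with no role or order. Every gene has at least 16 counts in total. The 10 genes were matched by symbol and given GENCODE M21 (GRCm38) positions by Ensembl identifier, which matched 22121 genes.

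Counts were scaled by TMM in edgeR 4.0.16 (R 4.3.3), filtered with filterByExpr, and compared by the quasi-likelihood test over all 8 libraries, with Benjamini-Hochberg adjustment over all tested genes and a threshold of 0.05. Levels are TMM-scaled CPM, the counts for each 1e+06 of a library. At this depth 3 counts equal 0.13 to 0.164 CPM, which covers counting error only. Libraries of a group differed beyond sampling noise (chi-square per degree of freedom at least 5.85), so each was 1 replicate. On simulated counts with 200 genes changed 2-fold, 96 were called (48%) with 8 others among 19702. The rule for named genes gave the 10, every called gene of the lists, and the 3 genes most like the member with the smallest p. Other listed genes that were not called over all 8 libraries, such as Gss, Mt3, Gpx3 and Gsto1, were named outside this rule. Alternatives were DESeq2 1.42.0, limma 3.58.1 voom, other scalings and filters, an offset for GC content, lens markers removed, a replicate block, and fits without libraries. The genes and lists were chosen with earlier results of these data known. The subsets KO 2 and KO 3 and KO 4 to KO 6, and some alternatives within them, were likewise chosen after seeing the data.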

Additional observations from a re-analysis of the deposited data

Results flagged for a closer look

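Of 20 values examined over the 5 libraries labelled KO (the 10 genes, cell marker sums and library measures), 7 had 1 library whose gap to the nearest other, divided by the range, was over the limit of 0.71. About 1 of 20 independent, normally distributed values would pass this limit. The 20 values come from the same 5 libraries and are not independent, so the 7 cannot be read against that number. KO 3 was that library for Gclc (gap ratio 0.887, at 68.8 CPM against 39.8 to 43.1), for Nqo1 (0.748, at 3.95 CPM against 2.02 to 2.51) and for Hmox1 (0.719, at 7.42 CPM against 2.86 to 4.14). KO 3 was also far above the others in summed lens markers (0.996, at 40200 CPM against 2.32 to 182). KO 2 stood apart in Muller glia markers (0.742, at 4800 CPM against 3280 to 3670) and in red blood cell markers (0.856, at 60.7 CPM against 19 to 25). KO 6 stood apart in pigment epithelium markers (0.744, at 119 CPM against 73.5 to 85.1). Slc7a11 did not pass this limit, because its values fell in 2 sets rather than leaving 1 library alone.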

How the results depend on the processing

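The pooled result for the 10 genes, 0 called, was the same with library size alone, the size factors of DESeq2, its Wald test and both other filters. It was also the same with the GC offset, lens markers removed and without each single library. The replicate block, a fit of 4 libraries, called 0 as well. Few genes of any kind were called in some of these fits. The share was 0.636% to 0.955% of all genes without 1 WT library, 1.84% to 2.68% without KO 4, KO 5 or KO 6, and 0.263% with the block. A count of 0 says little there. In the other fits 4.08% to 20% of all genes were called. The count was 3 with limma voom (40.9% of all genes) and without KO 2 and KO 3 (42.8%), and 1 without KO 4 to KO 6 (0.891%). The depth limits Hmox1 and Nqo1 most. The calls over all genes (1529) became 3127 with DESeq2, 8248 with limma voom, 8416 without KO 2 and KO 3, 180 without KO 4 to KO 6, and 132 to 3992 without each library in turn. The listed genes called (12) became 24 with DESeq2, 51 with limma voom, 5 with no filter on low counts, 5 with the GC offset, 53 without KO 2 and KO 3, 3 without KO 4 to KO 6, and 0 to 26 without each library in turn.

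The replicate numbers 2 and 3 were shared by 4 libraries whose deviations from the group means correlated at -0.19, so the numbers were not shown to pair animals. With the replicate block these 4 libraries gave 52 calls over all genes and 0 among the listed genes, against 14 without the block, and the crossed pairing, chosen after seeing the data, gave 527, with 3 of the 10 genes called. In the 4 libraries with the block, the log2 fold change turned from the pooled sign for Nfe2l2 (0.049), Gclm (0.19), Slc7a11 (0.72) and Txnrd1 (-0.03), none of them called. It turned for the same 4 genes in these libraries with no block (0.043, 0.20, 0.72 and -0.03).

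Other signs turned as follows. Gclc was at -0.10 with limma voom, at -0.15 without KO 2 and KO 3, and at -0.13 to 0.10 without each library. Slc7a11 was at 0.18 with the GC offset, at 0.73 without KO 4 to KO 6, and at -0.36 to 0.16 without each library. Gclm was at 0.093 with the GC offset and 0.22 without KO 4 to KO 6. Without KO 4 to KO 6, Nqo1 was at 0.022 and Txnrd1 at -0.002. Within KO 2 and KO 3 against WT, Nfe2l2 was at 0.028 with the GC offset. With each library of that fit left out in turn, calls over all genes were 11 to 3614, of the 10 genes 0 to 2 and of listed genes 0 to 16, and the log2 fold change ran from -0.096 to 0.055 for Nfe2l2, -0.44 to 0.38 for Nqo1, -0.061 to 0.062 for Txnrd1 and -0.073 to 0.59 for Gclc. Where KO 2 or KO 3 was left out, the lone KO library was assumed to vary like WT. Within KO 4 to KO 6 against WT, 5 of the 10 were called with the GC offset (31.9% of all genes) and 3 to 4 when 1 library was left out (34.8% to 37.8% of all genes). With each library of it left out in turn, Gpx4 ran from -0.078 to 0.074, Mt1 from -0.31 to 0.11 and Mt2 from -0.46 to 0.023, each above 0 only without WT 2. For these changes the cause was not tested. Signs of single genes under the crossed pairing are not given.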
